A study of Mus musculus with 4 samples.

Results

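The genes of the core sphingolipid enzymes were followed in cultured mouse pancreatic ductal cells whose Hhex gene was targeted for deletion. There are 10 genes of the 22869 gene symbols in the deposited tables: the ceramide synthases Lass2, Lass3, Lass4, Lass5 and Lass6, the dihydroceramide desaturases Degs1 and Degs2, the serine palmitoyltransferase subunits Sptlc1 and Sptlc2, and the glucosylceramide synthase Ugcg. Lass is the older name of the genes now called Cers. The family was chosen by an earlier result on these libraries, in which Lass3 was among the transcripts called different between the groups. The difference of Lass3 is therefore given as a description, and nothing rests on it. The other 9 genes were added for their place in the pathway. Where a gene has several RefSeq transcripts, that of highest mean count over the 4 libraries was taken. That choice mattered only for Degs2, which has 2 transcripts in the table, while the other 9 genes have 1 each.

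RNA was sequenced from primary ductal cells of adult C57BL/6 mice, with 2 animals in each group and the controls taken from the same litters. The control group had the genotype HhexL/L, with Hhex alleles that Cre can delete and no Cre. The other group had the genotype Sox9CreER;HhexL/L, in which a tamoxifen-activated Cre is driven by Sox9, a gene of ductal cells. Cells of both groups received 500 nM 4-hydroxytamoxifen in culture over 4 days, so the drug is shared by all libraries. No group carried Cre without the Hhex alleles, so an effect of Cre and an effect of Hhex loss cannot be told apart. Sexes are not given in the labels.

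Sphingolipids are built in the endoplasmic reticulum. Serine palmitoyltransferase joins serine to a fatty acyl group, a ceramide synthase adds a further acyl chain to the sphingoid base, and a desaturase turns dihydroceramide into ceramide. Each ceramide synthase prefers acyl chains of certain lengths, so the mix of synthases bears on the mix of ceramides. In epithelia, ceramide is carried on to glucosylceramide and sphingomyelin of the plasma membrane.

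The total of the deposited counts lay between 25257778 and 39582625 per library. Levels are given as CPM, the count divided by the TMM-scaled library total and put on the usual scale, and levels are compared between genes only as the authors' deposited RPKM, which also divides by transcript length. Hhex itself measured 24.8 and 17.7 CPM in control cells against 23.6 and 38.97 CPM in KO-labelled cells, so the targeted gene's count was not lower there. Which exons the deletion covers is not in the labels, so Hhex reads may come from sequence that remains. How far the deletion went in these cells cannot be told from these counts. The group with Cre is therefore called KO-labelled. Sox9, whose gene drives the Cre, measured 18.0 and 21.4 CPM in control cells against 52.3 and 44.3 CPM in KO-labelled cells (edgeR adjusted p = 0.0512). Summed CPM of 10 ductal markers lay between 12874 and 16764. Krt18 alone gave between 6234 and 9242 CPM, so the sums say little about the other markers. Cftr measured 33.6 and 35.1 CPM in control cells against 13.1 and 22.9 CPM in KO-labelled cells, lower where Sox9 was higher. Krt18 and Cftr were picked with their values in view, and 0 of the 10 were called by edgeR. Summed CPM of 6 acinar, 6 endocrine, 7 fibroblast and 4 endothelial markers was at most 10.97 for any list in any library, and that of 6 leukocyte markers at most 18.0. KO-labelled replicate 2 differed from the other 3 libraries in sex, with Xist, a gene picked with its values in view, at 304 CPM there and at most 1.75 CPM elsewhere.

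The promoters of Lass3 and Degs1 are shown because these genes had the highest fold changes of the 10. Each is the stretch of 250 bases before the start site annotated by RefSeq, on build GRCm38.p6, whereas the counts were made on mm9. The Lass3 (Cers3) window is chr7:66743254-66743503 on the plus strand, and the Degs1 window is chr1:182282196-182282445 on the minus strand. Both run 5′ to 3′ and end at the base before the start site. Capitals mark ATTA or its reverse complement TAAT, the core bound by many homeodomain proteins, the class to which HHEX belongs.
Lass3: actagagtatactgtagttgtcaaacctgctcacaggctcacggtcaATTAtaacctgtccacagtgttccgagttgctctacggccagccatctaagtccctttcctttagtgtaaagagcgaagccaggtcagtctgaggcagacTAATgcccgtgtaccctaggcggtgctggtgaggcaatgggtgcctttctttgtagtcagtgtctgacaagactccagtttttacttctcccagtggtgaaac
Degs1: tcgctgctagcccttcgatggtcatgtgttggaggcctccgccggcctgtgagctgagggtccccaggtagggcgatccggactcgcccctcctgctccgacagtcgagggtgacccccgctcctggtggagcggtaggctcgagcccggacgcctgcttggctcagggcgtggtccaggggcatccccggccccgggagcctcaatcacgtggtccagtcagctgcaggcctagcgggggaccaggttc
The Lass3 window held 2 matches, beginning 203 and 103 bases before the start site, and the Degs1 window held 0. Of 32851 promoter windows of the same length, 54.9% held at least 1 match and 30.8% held 2 or more, so such matches are common. The windows also differed in composition. GC content was 49.6% with 6 CpG pairs for Lass3 and 69.6% with 19 CpG pairs for Degs1, against medians of 52.4% and 6 over all windows. All 10 genes were found in the promoter table, with 11 windows, of which 5 held a match. No binding was measured, and which start site these cells use is not known from the counts.

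Sptlc1 and Sptlc2, subunits of the entry enzyme serine palmitoyltransferase, had abundant transcripts. Its small subunit Sptssa is described further below. Sptlc1 measured 91.5 and 95.9 CPM in control cells against 94.0 and 109.5 CPM in KO-labelled cells. The groups overlapped, and the log2 fold change was 0.12 ± 0.15 (SE). Sptlc2, the catalytic partner, measured 186 and 218 CPM in control cells against 280.3 and 206 CPM in KO-labelled cells. Only KO-labelled replicate 1 lay above both controls, and the log2 fold change was 0.27 ± 0.20 (SE). Neither subunit passed edgeR's quasi-likelihood test with Benjamini-Hochberg adjustment over all transcripts (adjusted p = 0.925 for Sptlc1 and 0.871 for Sptlc2). The ratio of Sptlc2 to Sptlc1 in RPKM was 1.39 and 1.55 in control cells against 2.04 and 1.28 in KO-labelled cells, so the controls lay inside the range of the other group.

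Among the ceramide synthases, Lass2 was the main transcript in every library. Its product uses very long acyl chains and is widely expressed. Lass2 measured 123 and 137 CPM in control cells against 159 and 139 CPM in KO-labelled cells. The groups did not overlap, but the gap between control replicate 2 and KO-labelled replicate 2 was smaller than the gap between the controls. The log2 fold change was 0.20 ± 0.15 (SE), and it missed the threshold (edgeR adjusted p = 0.879). Lass2 overlaps Anxa9 and Setdb1 in the GRCm38 gene table, and the treatment of strand in the counting is not given in the sources used here, so part of its count could belong to these neighbours. The same holds for Degs2, which overlaps Evl and Gm33467, for Lass6, which overlaps Gm52515, and for Sptlc2, which overlaps Gm33444.

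Lass5 and Lass6 encode synthases that prefer palmitoyl chains. Lass5 measured 51.3 and 57.9 CPM in control cells against 78.2 and 64.9 CPM in KO-labelled cells, without overlap. The log2 fold change was 0.39 ± 0.16 (SE, edgeR adjusted p = 0.626), short of the threshold. Without KO-labelled replicate 2 it was 0.50 and without KO-labelled replicate 1 it was 0.22, each with 1 library left in that group. Lass6 measured 20.2 and 22.5 CPM in control cells against 22.4 and 28.6 CPM in KO-labelled cells. Here KO-labelled replicate 1 lay at the level of control replicate 2, and the log2 fold change was 0.26 ± 0.18 (SE, edgeR adjusted p = 0.863). Lass4, whose product uses chains of intermediate length, measured 17.3 and 14.5 CPM in control cells against 17.1 and 19.8 CPM in KO-labelled cells. The groups overlapped (log2 fold change 0.21 ± 0.18 SE, edgeR adjusted p = 0.893).

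Lass3 differed most between the groups. Its product makes ceramides with very long and ultra-long chains and is known from the epidermis and the testis. Lass3 had 249 and 257 counts in control cells against 1091 and 1162 counts in KO-labelled cells. The lower control count has a 95% Poisson interval of 219 to 282, which covers counting error only. In CPM these were 9.07 and 10.4 in control cells against 29.2 and 37.5 in KO-labelled cells, or 9.75 ± 0.953 (SD, n = 2) against 33.4 ± 5.84 (SD, n = 2). The lowest KO-labelled library thus lay far above the higher control, and the libraries of a group differed by at most 1.28-fold. The log2 fold change was 1.77 ± 0.20 (SE), or 3.42-fold with a 95% interval of 2.49 to 4.70. In bulk RNA, more cells with a transcript and more transcript per cell cannot be told apart.

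The value on which Lass3 had been selected was its edgeR adjusted p, here 0.0262 against a threshold of 0.05. The next of the 10 genes, just outside the threshold, was Degs1 at 0.0902. Of all 20949 transcripts tested, 0.153% passed, 22 higher and 10 lower, and 1 of the 10 genes, Lass3, was among them. With upper-quartile factors or library totals in place of TMM the split over all transcripts was 0 higher and 5 lower. The Lass3 call was lost there (edgeR adjusted p = 0.0927 and 0.0975), with 1 transcript per gene (0.068), with counts summed per symbol (0.0503) and with a filter of at least 1 CPM in 2 libraries (0.0885). It held under the other 8 of 13 alternatives that kept every library, while the log2 fold change lay between 1.47 and 1.79 over all of them. Without control replicate 1 the log2 fold change was 1.67 and without control replicate 2 it was 1.91. Without KO-labelled replicate 1 and without replicate 2 it was 1.92 and 1.57. Each of these fits has 1 library in a group, so its call depends on the spread of the other group alone.

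**Figure D1:**
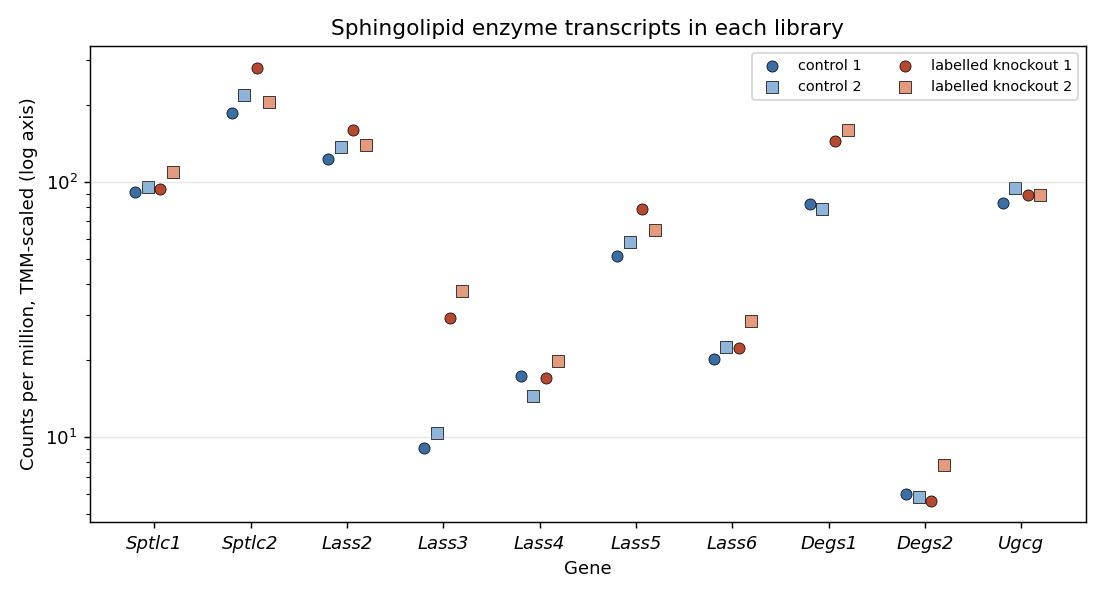
Level of each of the 10 genes in each library as TMM-scaled CPM on a log axis, with circles and squares for the replicates of each group. Lass3 lies near 9 to 10 CPM in both controls and at 29.2 and 37.5 CPM in the KO-labelled libraries, and Degs1 is the other gene with a wide gap between the groups.

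The desaturases behaved unlike each other in level and in difference. Degs1, the main dihydroceramide desaturase, measured 82.3 and 78.1 CPM in control cells against 145 and 160.1 CPM in KO-labelled cells, or 80.2 ± 2.93 against 152.6 ± 10.6 (SD, n = 2 each). Both KO-labelled libraries lay well above both controls, and replicates differed by at most 1.10-fold. The log2 fold change was 0.93 ± 0.14 (SE), a 1.90-fold difference with a 95% interval of 1.505 to 2.41, which missed the threshold (edgeR adjusted p = 0.0902). Degs1 passed in 4 of the 13 alternatives that kept every library. These were the edgeR exact test (adjusted p = 0.0007267), DESeq2 (0.0001563) and limma-trend on log2(RPKM + 1) and log2(RPKM + 0.1) (0.0471 and 0.0396). Its log2 fold change lay between 0.85 and 0.99 over the settings with every library, and between 0.84 and 0.97 when a library was left out. Each fit with a library left out has 1 library in a group, so its call depends on the spread of the other group alone.

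Degs2, which can also hydroxylate to form phytoceramides, was low. Its main transcript NM_001171002 measured 6.01 and 5.84 CPM in control cells against 5.65 and 7.81 CPM in KO-labelled cells. The groups overlapped, with a log2 fold change of 0.17 ± 0.25 (SE, edgeR adjusted p = 0.937). The other transcript, NM_027299, had 9 and 14 counts in control cells against 8 and 47 in KO-labelled cells, so its only higher value came from KO-labelled replicate 2. Per length, Degs1 stood above Degs2 by 21.7-fold and 21.3-fold in control cells against 40.8-fold and 32.6-fold in KO-labelled cells. These ratios are free of library scaling.

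Ugcg, which adds glucose to ceramide and so opens the path to the gangliosides, was level across the libraries. It measured 82.7 and 94.7 CPM in control cells against 89.2 and 88.5 CPM in KO-labelled cells, with the latter pair between the controls. The 95% interval of the fold was 0.793 to 1.27, so a change within these bounds was not excluded. In RPKM, Degs1 exceeded Ugcg by 1.84-fold and 1.53-fold in control cells against 3.02-fold and 3.36-fold in KO-labelled cells.

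**Figure D2:**
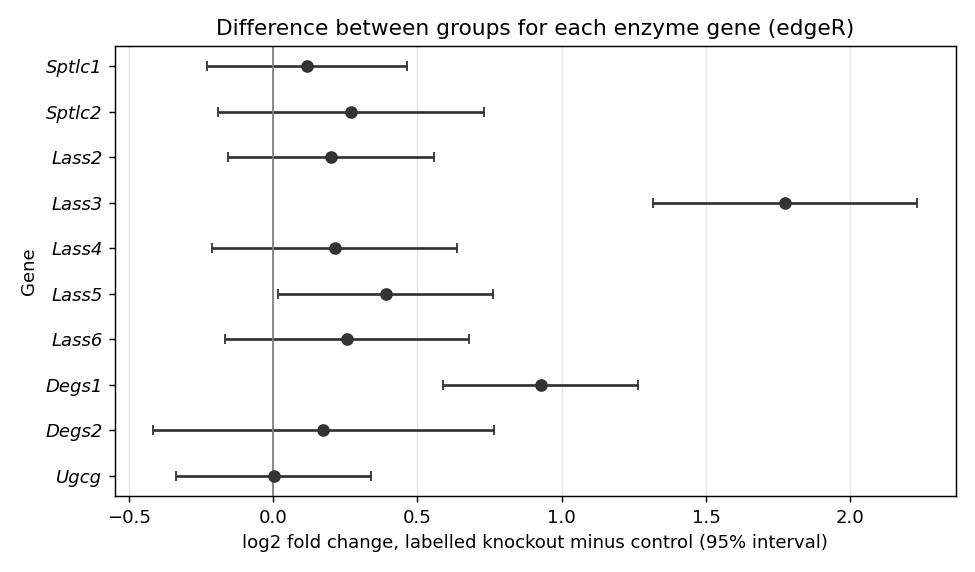
edgeR log2 fold change of each gene, KO-labelled minus control, with 95% intervals as bars over 2 libraries a group. The intervals of Lass3, Degs1 and Lass5 exclude 0, before adjustment over all transcripts, and that of Ugcg is centred near 0.

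All 10 genes were tested, and all 10 fold changes were above 0, with a median log2 fold change of 0.23. Over the 15892 genes tested, taken at 1 transcript each, the median was -0.01, with 7621 fold changes above 0 and 8271 below. The fold change of Ugcg was too small to have a direction, at 0.0022, and its sign turned under other scalings, among them library totals (-0.07). In 4 of the 10 genes, Lass2, Lass3, Lass5 and Degs1, both KO-labelled libraries lay above both controls. The same held for 18.8% of all genes tested. Both libraries lay below both controls in 0 of the 10, and in 17.4% of all genes tested. The 10 genes were picked with results known and are not a random draw, so these counts describe them only.

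Ranked per length, the 10 genes spanned a wide range of levels. Mean RPKM over the groups ran from 1.37 ± 0.0462 for Degs2 in the controls (SD, n = 2) to 58.7 ± 1.97 for Degs1 in the KO-labelled libraries (SD, n = 2). In the controls the order of mean RPKM was Lass2 at 47.6, Sptlc2 at 39.7, Degs1 at 29.4, Sptlc1 at 26.9, Lass5 at 20.1, Ugcg at 17.6, Lass6 at 4.01, Lass4 at 3.18, Lass3 at 2.21 and Degs2 at 1.37. This order was the same in both control libraries. In the KO-labelled libraries the means at the top were Degs1 at 58.7, Lass2 at 57.3 and Sptlc2 at 50.2. In KO-labelled replicate 1 the order at the top was Lass2, Sptlc2 and Degs1, and in replicate 2 it was Degs1, Lass2 and Sptlc2. In both KO-labelled libraries Lass3, at a mean of 7.90, stood above Lass6 at 4.999 and Lass4 at 3.88. Over the 4 libraries, 96.6% of all genes had a lower mean RPKM than Lass2, 95.8% than Degs1 and 69.4% than Lass3.

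The make-up of the ceramide synthases was compared as each gene's share of the summed RPKM of the 6 Lass genes, which removes library scaling. Lass1, the remaining family member, known from neurons, was near the floor with 24 and 18 counts in control cells against 11 and 12 in KO-labelled cells, without overlap (log2 fold change -1.25 ± 0.66 SE, edgeR adjusted p = 0.754). Lass3 made up 2.80% and 2.92% of the sum in the controls and 6.54% and 9.17% in the KO-labelled libraries. Lass2 made up 61.3% and 61.8% in control cells against 57.5% and 54.9% in KO-labelled cells. Shares of a sum are tied to each other, so the lower Lass2 share is not independent of the higher Lass3 share. The CPM of Lass2 itself was not lower in KO-labelled cells. Lass5 held 25.6% and 26.3% in control cells against 28.3% and 25.7% in KO-labelled cells, Lass6 between 4.15% and 5.79% and Lass4 between 3.39% and 4.74% in all 4. The shares of Lass4, Lass5 and Lass6 overlapped between the groups. Lass6 exceeded Lass3 by 1.84-fold and 1.79-fold in the controls, and its ratio to Lass3 was 0.635 and 0.631 in the KO-labelled libraries. The summed RPKM of the family was 70.5 and 84.0 in control cells against 109 and 94.6 in KO-labelled cells. Unlike the shares, these sums carry the authors' library scaling, which differs from TMM, so their difference between the groups depends on that scaling.

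**Figure D3:**
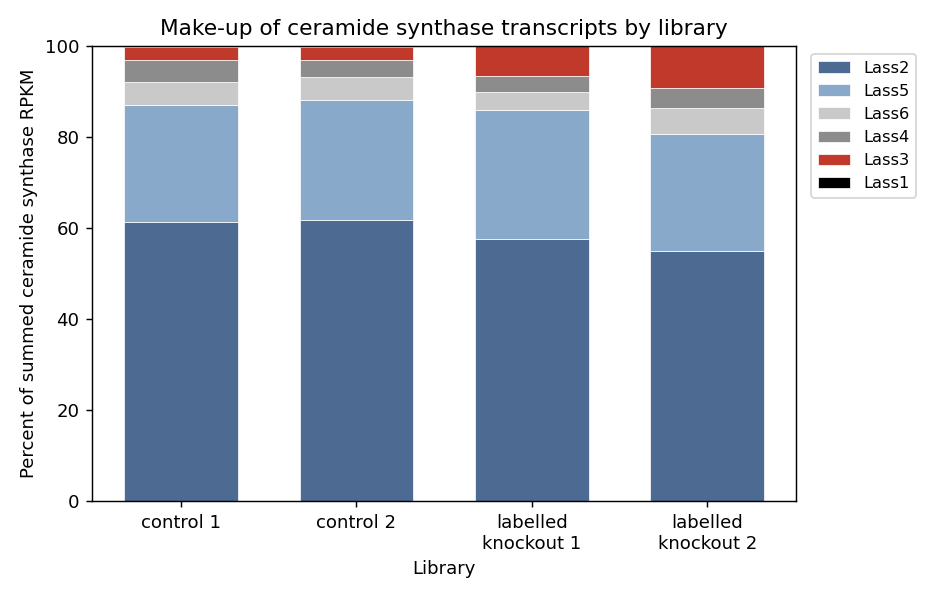
Share of each ceramide synthase gene in the summed deposited RPKM of the 6 Lass genes, 1 bar per library, in percent from 0 to 100. Lass2 is the widest band of each bar, and the Lass3 band is 2.80% and 2.92% in control cells against 6.54% and 9.17% in KO-labelled cells.

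Genes of epidermis and testis, the tissues for which Lass3 is known, were set beside it. Summed CPM of 8 keratinocyte markers was 27.9 and 27.3 in control cells against 14.2 and 42.7 in KO-labelled cells, which stand on either side of the controls. Most of that sum was Ivl, the involucrin gene, at 17.2 and 21.6 CPM in control cells against 8.54 and 33.6 CPM in KO-labelled cells. Ivl was picked for mention with its values in view, as were Krt5, Krt14 and Krt1, which were at most 1.31 CPM in any library. Of the 8 markers 7 were tested and 0 were called by edgeR, with 0 at an unadjusted p under 0.05. Summed CPM of 5 germ cell markers was 2.81 and 2.55 in control cells against 2.04 and 2.45 in KO-labelled cells. No marker of either list was at 0 in all libraries. Whether these genes bear on the Lass3 difference was not tested.

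The profile most like that of Lass3 was sought among 10989 other genes with a mean RPKM of at least 1, by the root mean square difference in log2 CPM over the 4 libraries, each gene centred on its mean. Porcn, the acyltransferase that lipidates Wnt proteins, was closest with a difference of 0.075. It measured 15.2 and 15.8 CPM in control cells against 43.3 and 55.0 CPM in KO-labelled cells. Klra12, a lectin-like receptor gene of a multigene family whose members share reads, followed at 0.095, and Tlr3, a sensor of double-stranded RNA, at 0.10. With 4 libraries, many genes that differ between the groups have such profiles.

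The wider sphingolipid pathway was described with a list of 88 genes by role, of which 87 were in the table and 80 were tested. Lass3 was its only call by edgeR over all transcripts, while 6 genes had an unadjusted p under 0.05 upward and 5 downward. Among the 70 tested outside the 10 enzyme genes, 3 had such a p upward and 5 downward. Of all genes tested, 4.62% had such a p upward and 2.87% downward. The median log2 fold change of the 80 was 0.11, and of the 70 tested outside the 10 enzyme genes it was 0.07, with 39 positive and 31 negative. Over all 15892 genes tested, 7621 were positive and 8271 negative. Both libraries lay above both controls in 15 of those 70 and below both in 16, against the 18.8% and 17.4% of all genes tested, so these counts were near the background.

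In the steps from serine to ceramide other than the synthases, 10 genes were tested and 0 passed edgeR, with 1 at an unadjusted p under 0.05 in each direction. The higher one was Degs1, described above. The lower one was 1110002B05Rik, the older name of Sptssa, a small subunit that activates the enzyme. It measured 47.6 and 37.9 CPM in control cells against 28.02 and 25.2 CPM in KO-labelled cells, with a log2 fold change of -0.68 ± 0.17 (SE, edgeR adjusted p = 0.291). Ormdl3, which restrains the enzyme, measured 71.2 and 69.1 CPM in control cells against 58.4 and 60.4 CPM in KO-labelled cells (edgeR adjusted p = 0.782). Neither passed the test, although the groups did not overlap in either gene.

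The longer acyl chains used by the synthases are made by elongation. Of 10 genes tested there 0 passed edgeR, with 1, Hsd17b12, at an unadjusted p under 0.05. Hsd17b12, a reductase of the elongation cycle, measured 140.3 and 123 CPM in control cells against 107.5 and 91.9 CPM in KO-labelled cells (log2 fold change -0.40, edgeR adjusted p = 0.601). Elovl6, which elongates palmitate, measured 24.0 and 17.7 CPM in control cells against 17.1 and 12.8 CPM in KO-labelled cells (edgeR adjusted p = 0.704). Elovl4 makes the ultra-long chains that the Lass3 product uses and was chosen for mention after its values were seen. It was at most 0.619 CPM in any library. Elovl1, chosen in the same way, supplies very long chains and measured 26.05 and 28.6 CPM in control cells against 30.3 and 35.0 CPM in KO-labelled cells (edgeR adjusted p = 0.815).

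Sphingomyelin genes had 8 of 10 fold changes above 0, against 7621 of all 15892 genes tested, a count that was not tested. Of the 10, 0 passed edgeR, with 1 at an unadjusted p under 0.05. That gene was Smpd1, the acid sphingomyelinase of the lysosome, which measured 26.7 and 30.4 CPM in control cells against 48.1 and 40.8 CPM in KO-labelled cells. Its log2 fold change was 0.64 ± 0.16 (SE, edgeR adjusted p = 0.3001). Samd8, which makes a ceramide analogue of sphingomyelin, measured 43.3 and 54.2 CPM in control cells against 70.9 and 58.1 CPM in KO-labelled cells (edgeR adjusted p = 0.672). In both genes the groups did not overlap, and neither difference passed.

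Beyond Ugcg, glycosphingolipid synthesis showed opposite values in its lactosylceramide synthases. B4galt5 measured 21.6 and 22.8 CPM in control cells against 17.4 and 14.1 CPM in KO-labelled cells (log2 fold change -0.49, edgeR adjusted p = 0.526). B4galt6 measured 34.9 and 34.8 CPM in control cells against 43.6 and 47.0 CPM in KO-labelled cells (log2 fold change 0.38, edgeR adjusted p = 0.566). Both add galactose to the product of Ugcg. Of 9 genes tested in this role these 2 had an unadjusted p under 0.05, and 0 passed after adjustment by edgeR.

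Breakdown of glycosphingolipids, in the lysosome and elsewhere, held 12 tested genes, and 0 passed edgeR. Fold changes were above 0 in 9 of them, against 7621 of all 15892 genes tested, a count that was not tested. Gm2a, the activator protein for ganglioside degradation, measured 57.7 and 68.7 CPM in control cells against 107 and 99.3 CPM in KO-labelled cells. Its log2 fold change was 0.71 ± 0.15 (SE, edgeR adjusted p = 0.2097), the smallest adjusted p of the list after Lass3 and Degs1, and it passed in 2 of the 13 alternatives with every library. Neu1, the lysosomal sialidase, measured 112 and 117 CPM in control cells against 87.0 and 65.9 CPM in KO-labelled cells (log2 fold change -0.58, edgeR adjusted p = 0.4103). Gla, which removes terminal galactose, stood at 44.5 and 46.8 CPM against 39.6 and 26.03 CPM (edgeR adjusted p = 0.682). Gm2a and Neu1 had an unadjusted p under 0.05.

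Ceramidase genes and ceramide kinase gave 6 tested genes, 0 past edgeR's threshold and 1 with an unadjusted p under 0.05. That was Acer2, the Golgi ceramidase, at 8.89 and 9.89 CPM in control cells against 5.14 and 7.35 CPM in KO-labelled cells (log2 fold change -0.60, edgeR adjusted p = 0.632). Acer3, another alkaline ceramidase, measured 102 and 103 CPM in control cells against 125 and 120.2 CPM in KO-labelled cells (edgeR adjusted p = 0.754).

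Sphingosine 1-phosphate genes gave 12 tested, 0 passing edgeR and 0 with an unadjusted p under 0.05. Sphk1, a kinase that makes the lipid, measured 28.1 and 34.1 CPM in control cells against 39.3 and 32.7 CPM in KO-labelled cells, so the groups overlapped. Sgpp2, a phosphatase, was near the floor at 1.97 and 1.26 CPM against 0.723 and 0.742 CPM (edgeR adjusted p = 0.666). Sgpp1, its relative, stood at 30.0 and 31.8 CPM against 35.1 and 36.5 CPM (edgeR adjusted p = 0.846). In the lipid transfer group of 5 genes, 0 passed edgeR and 0 had an unadjusted p under 0.05. Gltp, which carries glycolipids, measured 12.4 and 14.6 CPM in control cells against 16.5 and 19.8 CPM in KO-labelled cells (edgeR adjusted p = 0.682). Plekha3, a lipid-binding protein of the Golgi, stood at 53.9 and 53.8 CPM against 62.8 and 57.5 CPM (edgeR adjusted p = 0.893).

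**Figure D4:**
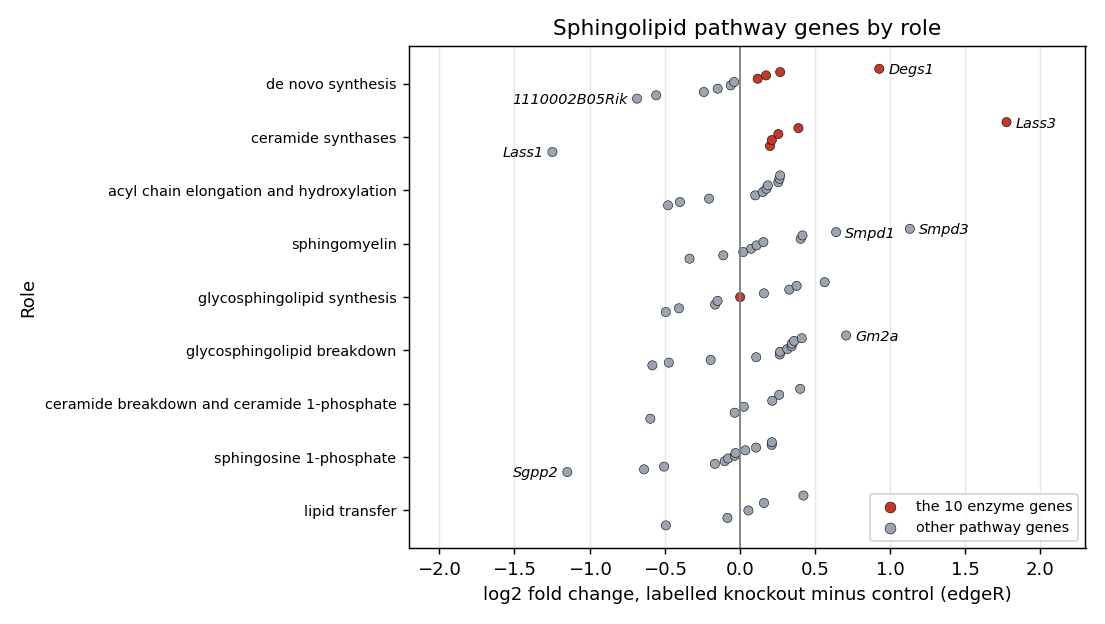
edgeR log2 fold change, KO-labelled minus control, of the 80 tested pathway genes, 1 point per gene in rows by role, with the 10 enzyme genes in red. Lass3 stands farthest to the right at 1.77, followed by Smpd3 and Degs1, and the other points spread to both sides of 0.

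**Figure D5:**
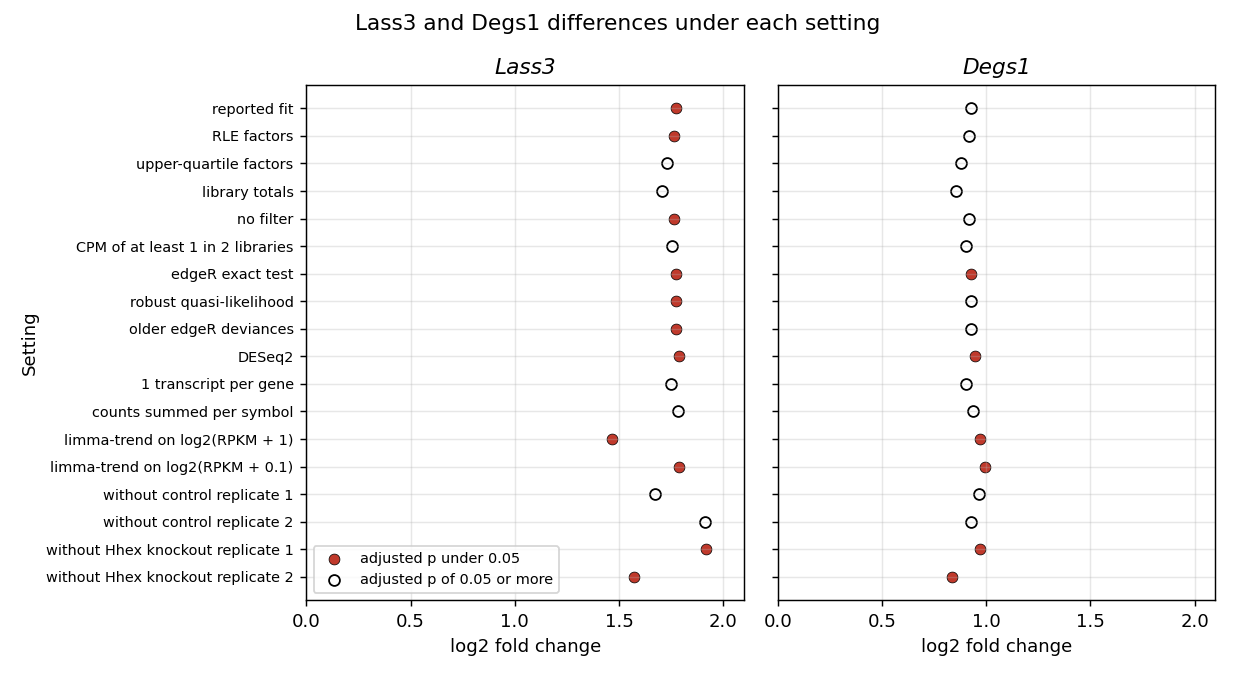
log2 fold change of Lass3 and Degs1 in the reported fit and under each other setting, with filled points where the adjusted p was under 0.05. The fold changes move little, between 1.47 and 1.92 for Lass3 and between 0.84 and 0.99 for Degs1, while the calls change with the setting.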

How the data were processed

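The authors deposited 2 tables for the 4 libraries, raw counts and RPKM, both listing the same 28644 RefSeq transcripts. The build mm9 and the tool edgeR are named per the submitters' processing notes, while aligner, counter and strand setting are not given in the sources used here. Counts in the deposited table are whole and carry no normalization. RPKM, as deposited, is the authors' count per kilobase of transcript, scaled to a total for each library.

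The 10 genes, the pathway list, the marker lists and the rules were chosen with earlier results of these data known. Counts were fitted with R 4.3.3 and edgeR 4.0.16: filterByExpr (minimum count 10, minimum total 15), TMM factors, and the quasi-likelihood F test with bias-adjusted deviances, KO-labelled minus control. P-values were adjusted by Benjamini-Hochberg over the 20949 transcripts tested, calling those under 0.05, and 7695 transcripts fell to the filter. Each SE is the fold change divided by the root of F, and intervals are 95% intervals. The fit has 2 residual degrees of freedom and a common biological coefficient of variation of 0.234. The code was tested on simulated counts. CPM was taken over the library totals, 25257778 to 39582625 counts, times the TMM factors. Reads carry no molecular identifiers, so counting intervals cover counting error only.

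Named genes were the 10, Hhex and Sox9, and in each role of the pathway list the 2 with the smallest p, or 3 in roles of over 10 tested genes, plus the 3 profiles most like Lass3. A gene named outside the rule is said to have been picked with its values in view. Alternatives were other scaling, filters and tests, DESeq2 1.42.0, limma-trend (limma 3.58.1) on log2(RPKM + 1) and log2(RPKM + 0.1), 1 transcript per gene, summed counts and each library left out. Older edgeR deviances were added after the data were seen. Of the pathway list, Sptssb had no line in the table under that name. Promoter windows came from a RefSeq table of build GRCm38.p6, and gene overlaps from a gene table of the same assembly.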

Additional observations from a re-analysis of the deposited data

How the results depend on the processing

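The count of transcripts called, 32 in the reported fit, was 5 with upper-quartile factors, 5 with library totals, 4 with at least 1 CPM in 2 libraries, 2 with 1 transcript per gene and 14 with summed counts. It was 64 with robust quasi-likelihood, 190 and 221 with limma-trend on log2(RPKM + 1) and log2(RPKM + 0.1), 270 with the edgeR exact test and 303 with DESeq2, and 0 to 1911 when a library was left out. Pathway genes called by edgeR, 1 in the reported fit, were 0 with upper-quartile factors, library totals and the 1 CPM filter (14 at an unadjusted p under 0.05 in each), with 1 transcript per gene (12) and with summed counts (10). They were 3 with the exact test and DESeq2 (Lass3, Degs1 and Gm2a), 2 with limma-trend (Lass3 and Degs1) and 0 to 14 when a library was left out. With a library left out a single library stands for its group and is assumed to vary like the others.

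The log2 fold change of Ugcg turned to -0.0070 with RLE factors, -0.044 with upper-quartile factors, -0.069 with library totals, -0.0055 with no filter, -0.020 with the 1 CPM filter and -0.020 with 1 transcript per gene. It lay between -0.095 and 0.14 when a library was left out. Without KO-labelled replicate 2, Degs2 turned to -0.087 and Sptlc1 to -0.012, with ranges up to 0.37 and 0.20. The other 7 enzyme genes kept a positive fold change under every alternative. Shares of the Lass genes from raw counts, not divided by length, were 9.18% for Lass6, 6.88% for Lass4 and 4.19% for Lass3 in the controls and 8.58%, 6.20% and 11.2% in the KO-labelled libraries. No scaling moved the median of all features by over 0.1. No paired analysis was possible because the labels number the samples across both groups and pair none.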

Other observations

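Smpd3, the neutral sphingomyelinase, was chosen after its values were seen. The controls measured 28.7 and 24.6 CPM, KO-labelled replicate 1 measured 20.4 CPM and KO-labelled replicate 2 measured 96.8 CPM, so 1 library sets its log2 fold change of 1.13 (edgeR adjusted p = 0.754). Sgms1, a sphingomyelin synthase chosen in the same way, stood at 144 and 151 CPM in the controls, at 98.4 CPM in KO-labelled replicate 1 and at 176 CPM in replicate 2. In both genes the KO-labelled libraries lay on opposite sides of the controls.

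Other genes of the epidermal ceramide route, also chosen after their values were seen, were near the floor. Fa2h, the fatty acid hydroxylase, was at most 0.619 CPM and was not tested, and Abca12, the lipid transporter of lamellar granules, was at most 1.06 CPM in any library. Asah1, the acid ceramidase, was among the most abundant pathway genes at 351 and 387 CPM in control cells against 432 and 425 CPM in KO-labelled cells (log2 fold change 0.22, edgeR adjusted p = 0.882).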
